A study of Sus scrofa with 48 samples.

Results

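The pyruvate dehydrogenase complex and the enzymes that switch it off and on were followed in pig subcutaneous adipose tissue (SCAT) through 10 genes. These were PDHA1, PDHB, DLAT, DLD and PDHX for the subunits of the complex, PDK1, PDK2, PDK3 and PDK4 for its kinases, and PDP1 for a phosphatase subunit. A probe of the array belonged to a gene when the array gave it that gene's name, accession or gene number, which gave 42 of the 60305 probes. A probe was kept when, in any group, the scanner software called it well above background on 9 or more arrays out of 12. All 42 probes were kept, as were 44356 probes of the whole array. In this set, 41 probes were well above background on all 48 arrays, so that nearly every value below is a measured level rather than a bound. No spot of the 42 probes was saturated or marked as an outlier by the scanner software.

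The tissue came from the back fat of 48 Large White barrows aged 132 days, with 12 pigs and 12 arrays in each of 4 groups. The pigs came from a pair of lines bred apart on residual feed intake (RFI, the feed eaten beyond what growth and maintenance predict), and those of the low RFI line are the more efficient. Under the HF diet, rich in fat and fiber, rapeseed and soybean oils stood in for part of the cereal starch and wheat straw was added. The LF diet, low in fat and fiber, drew its energy from starch and was formulated to match in energy and protein. Each line was fed each diet with free access, which gives the 4 groups. The study reports that HF pigs ate less, weighed less at the end and carried less body fat than LF pigs. The diets also differed in fat, starch and fiber at once. A diet difference therefore cannot be given to any of these, or to intake or fatness, alone.

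Pyruvate dehydrogenase sits in the mitochondrial matrix and turns pyruvate, the end product of glycolysis, into acetyl-CoA. In adipocytes this step feeds both respiration and, through citrate, the synthesis of fatty acids from glucose. The complex is built from a pyruvate decarboxylase called E1 (PDHA1 and PDHB), an acetyltransferase core called E2 (DLAT), a dehydrogenase called E3 that is shared with other complexes (DLD), and a protein that binds E3 to the core (PDHX). The kinases PDK1 to PDK4 phosphorylate the E1 alpha subunit and inactivate the complex, whereas phosphatases such as the one built on PDP1 reactivate it. PDK4 is known as the kinase whose transcript rises with fasting and with fat as fuel.

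The number of probes differed between the genes. PDK4 had 11 probes, DLD 10 and PDHA1 5, while DLAT, PDK1, PDK2 and PDK3 had 3 each, PDHB 2, and PDHX and PDP1 1 each. Several of them share sequence and are not separate measurements. Of all pairs of the 42 probes, 7 pairs shared a run of at least 15 bases on the same strand, and these involved 11 probes of DLD, PDK3 and PDK4. The PDK4 probes O11548 and A_72_P576424 have the same 60 bases, and A_72_P561949 overlaps both by a run of 19 bases. The first 30 bases of O11548 and the last 30 of A_72_P561949 are printed, because the PDK4 result depends on how far its probes repeat each other. Capitals mark the shared run.

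PDK4 O11548: CTAGTGGATGGAAACTGACtgttcaggccc

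PDK4 A_72_P561949: CTAGTGGATGGAAACTGACgttcaggccca

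The kinases are paralogues, and the array might have read one for another. No run over 11 bases was shared by probes of different genes in the set. Among the 126 pairs of probes from different kinases, the closest was a PDK1 probe and a PDK2 probe that cover a like stretch of their transcripts. They are printed because they show how far the probes of related kinases differed. Capitals mark the bases that were identical in the best alignment without gaps, 33 of the 56 aligned bases (58.9%), with a longest shared run of 8 bases.

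PDK1 A_72_P471686: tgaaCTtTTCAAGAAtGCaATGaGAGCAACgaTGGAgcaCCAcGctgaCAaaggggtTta

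PDK2 A_72_P383353: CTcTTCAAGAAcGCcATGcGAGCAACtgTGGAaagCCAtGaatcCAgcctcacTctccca

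For the subunits, the probes printed next are the PDHA1 and DLAT probes with the smallest p-values by diet, and the single PDHX probe, as a called and an uncalled example of the subunits. They carry no capitals.

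PDHA1 A_72_P513752: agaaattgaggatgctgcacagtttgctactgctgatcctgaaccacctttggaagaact

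DLAT A_72_P468917: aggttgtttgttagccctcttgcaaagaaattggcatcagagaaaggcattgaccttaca

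PDHX A_72_P155826: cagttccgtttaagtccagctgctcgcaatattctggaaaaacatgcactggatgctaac

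A search of the whole array with runs of 20 bases on both strands found 1 match outside the set. It was a probe of unknown description that repeats the 60 bases of PDK1 A_72_P236277. The strand of the probes whose names start with O could not be settled, because none of them shared such a run with another probe, apart from O11548.

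Values are log2 processed signals minus the median of the array, so that 0 is the level of the median kept probe. Levels are compared between pigs for the same probe only. A probe passed the test when it met the study's 3 cut-offs in limma, which are a fold over 1.1, an unadjusted p under 0.01, and an adjusted p (Benjamini-Hochberg over all 44356 kept probes) under 0.08. Where a gene is given by 1 value, its brightest probe is used. Fewer cells of a type and less RNA per cell cannot be told apart in such whole-tissue samples.

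By diet, 17 of the 42 probes (40.5%) passed, against 13.1% of all kept probes. Probes of 1 gene repeat each other, so this is not a count of genes. At the brightest probe of each gene, PDHA1, PDHB, DLAT and PDK1 fell, PDK4 rose and the others did not pass. Of all genes with a symbol, 12.7% passed at that probe. The study had already listed PDHA1, DLAT and PDK1 as lower under HF in its adipose tissues. Transcripts of E1 and E2 fell under the HF diet at every probe of PDHA1, PDHB and DLAT, 10 of 10, and 1 of 3 PDK1 probes fell too. The transcript of the kinase PDK4 rose at 6 of its 11 probes. None of the 10 DLD probes, the PDHX probe or the probes of PDK2, PDK3 and PDP1 passed. The median difference over the 42 probes was -0.17, and over all kept probes it was -0.02. Of the kept probes, 7.44% fell and 5.61% rose. With arrays scaled to their 75th percentile in place of the median, 9 of the 42 probes fell and 9 rose, and the share of falls among all calls on the array went from 57% to 32.8%.

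**Figure D1:**
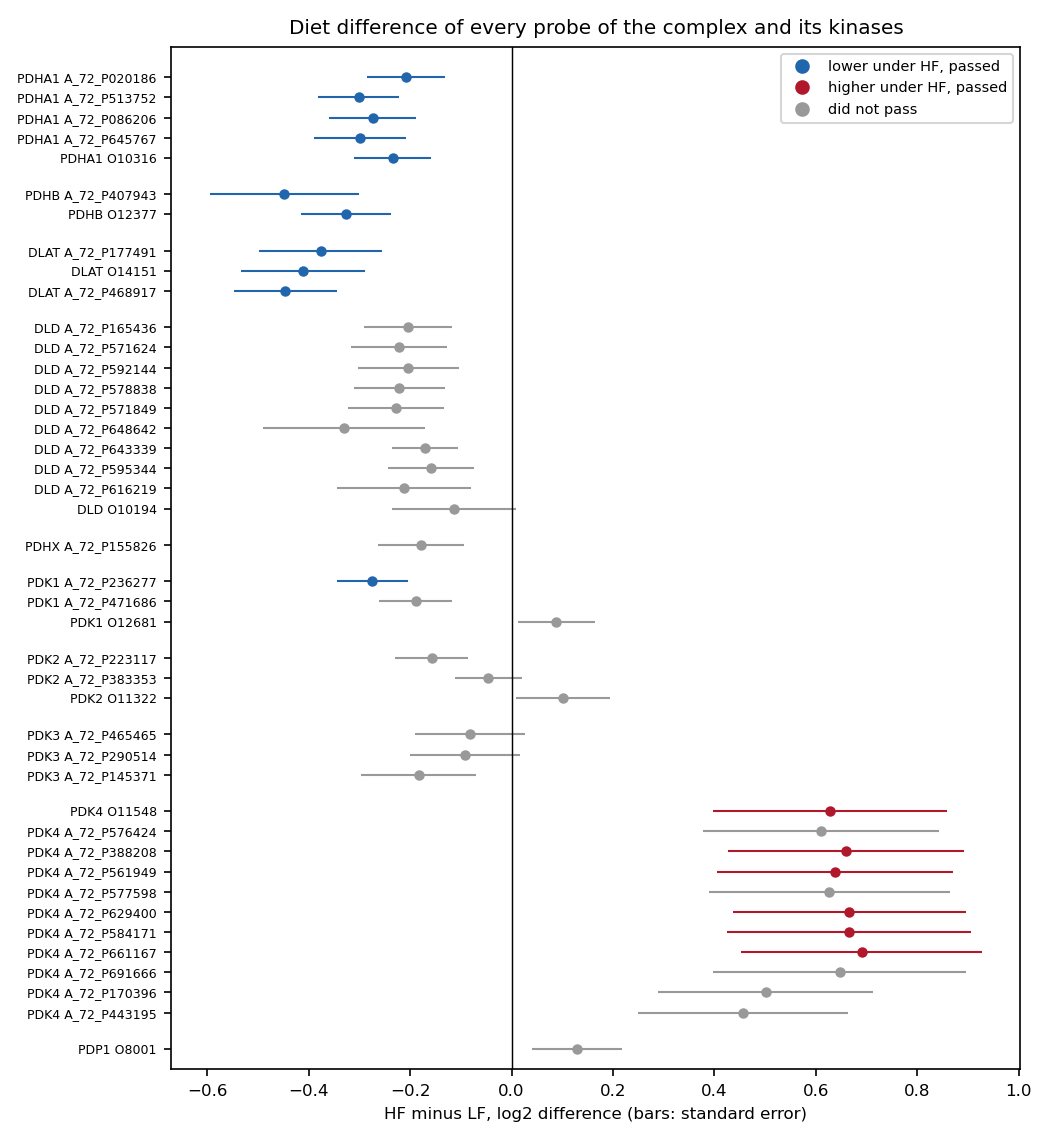
Difference between the HF and the LF diet (log2, 24 pigs each) for each of the 42 probes, grouped by gene. Points are fitted differences and bars standard errors, with probes that passed the test in blue (lower under HF) or red (higher). All 10 probes of PDHA1, PDHB and DLAT lie below 0 in blue, and all 11 PDK4 probes lie above 0, 6 of them in red.

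PDHA1 encodes the E1 alpha subunit, the one the kinases phosphorylate. At its brightest probe, A_72_P020186, the lowest, median and highest values in low RFI pigs were 6.35, 6.87 and 7.33 under HF and 6.23, 7.08 and 7.25 under LF. In high RFI pigs they were 6.55, 6.88 and 7.18 under HF and 6.37, 7.15 and 7.39 under LF. The groups overlapped, yet 22 of the 24 HF pigs lay below the median of the LF pigs. The mean was 6.84 ± 0.24 (SD, n = 24) under HF and 7.04 ± 0.29 under LF, a fall by 0.21 (SE 0.08, limma adjusted p = 0.0687), or 1.16-fold. The other 4 PDHA1 probes fell by 0.23 to 0.30, and the lowest adjusted p of the 5 was 0.0093 at A_72_P513752, which is printed above. Not all PDHA1 calls held in other fits. A_72_P020186 passed in 10 of 19 alternatives, and 3 of the 5 probes passed with 75th percentile scaling or the signal covariate and 4 with the study's analysis of variance.

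PDHB, the E1 beta subunit and partner of PDHA1, fell at both of its probes. At its brightest probe, A_72_P407943, low RFI pigs had a lowest, median and highest value of 5.51, 6.21 and 7.04 under HF and of 5.16, 6.72 and 7.16 under LF. High RFI pigs had 5.29, 6.18 and 6.78 under HF and 5.48, 6.84 and 7.53 under LF. The lowest pig of all was thus an LF pig, whereas 21 of the 24 HF pigs lay below the LF median. The fitted fall was 0.45 (SE 0.15, limma adjusted p = 0.0385), which is 1.36-fold, and the second probe fell by 0.33 (limma adjusted p = 0.0119).

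DLAT, the acetyltransferase that hands the acetyl group to coenzyme A, held the smallest adjusted p of the 42 probes. At its brightest probe, A_72_P177491, the lowest, median and highest values of low RFI pigs were 2.84, 3.55 and 4.23 under HF and 3.25, 3.97 and 4.41 under LF. Those of high RFI pigs were 3.18, 3.83 and 4.27 under HF and 3.29, 4.36 and 5.08 under LF. Here 17 of the 24 HF pigs lay below the LF median. The fall was 0.38 (SE 0.12, limma adjusted p = 0.0349) at this probe and 0.45 (SE 0.10, limma adjusted p = 0.0026) at A_72_P468917, or 1.36-fold. The DLAT probes moved together between pigs, with correlations of 0.83 to 0.95 after the group means were subtracted.

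DLD, the E3 enzyme, did not pass at any of 10 probes, although all 10 differences were negative and ranged from -0.33 to -0.11. At its brightest probe, A_72_P165436, 20 of the 24 HF pigs lay below the LF median. This probe had a mean of 4.53 ± 0.28 (SD, n = 24) under HF and 4.73 ± 0.34 under LF, a difference of -0.20 (SE 0.09, limma adjusted p = 0.125). The probe nearest to the threshold, A_72_P643339, had an adjusted p of 0.0779 and missed only the raw p, which was 0.0112. The DLD probes did not all vary together. The median correlation between them was 0.70 across pigs, but A_72_P643339 and O10194 correlated with the other 8 at 0.37 or less. O10194 was the dimmest, and the single probe of the set that was not above background on all arrays (42 of 48). The mean over all 10 DLD probes differed by -0.21 between the diets (SE 0.08) with an adjusted p of 0.0845 in limma. The call depended on the fit, since 6 DLD probes passed with the signal level of the array as a covariate, 5 with array weights, 2 with the slide as a block and 1 in each of 5 other fits.

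PDHX had 1 probe, whose mean was 0.39 ± 0.28 (SD, n = 24) under HF and 0.57 ± 0.31 under LF. The difference of -0.18 (SE 0.09, limma adjusted p = 0.176) did not pass. Whether the fall differed between the subunits was not tested.

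**Figure D2:**
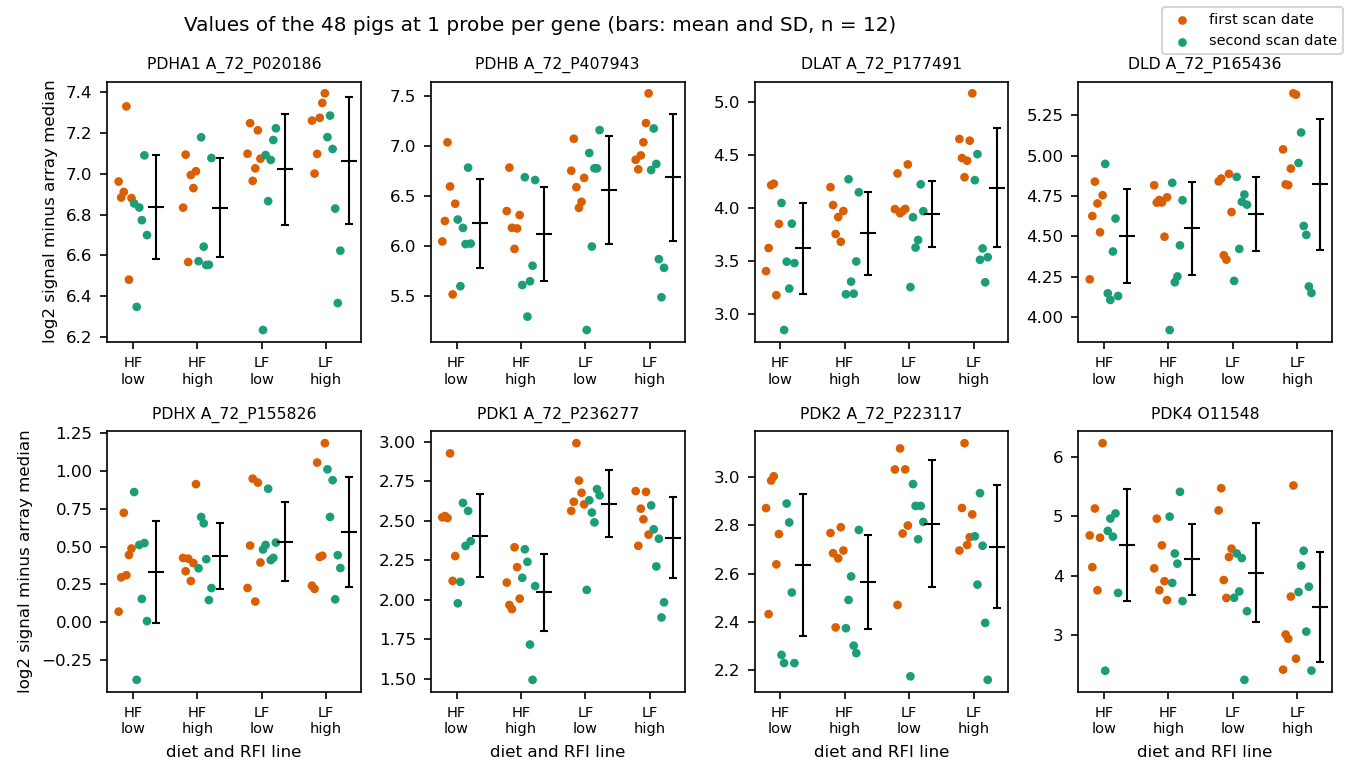
Log2 signal minus the array median (vertical axes) in each of the 48 pigs at the brightest probe of 8 genes, by diet and RFI line (12 pigs per group). Points are single pigs, coloured by scan date, and bars give the mean and SD of the group. PDHA1, PDHB and DLAT lie lower under HF with overlapping groups, PDK4 lies higher under HF with a wide spread, and PDK1 differs by both diet and line.

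Among the kinases, PDK4 had the widest spread between pigs. At probe O11548, low RFI pigs had a lowest, median and highest value of 2.40, 4.67 and 6.23 under HF and of 2.25, 4.11 and 5.47 under LF. High RFI pigs had 3.58, 4.17 and 5.41 under HF and 2.41, 3.36 and 5.52 under LF. The groups overlapped over most of their range, although 20 of the 24 HF pigs lay above the LF median. The mean was 4.39 ± 0.78 (SD, n = 24) under HF and 3.77 ± 0.91 under LF, a rise by 0.63 (SE 0.23, limma adjusted p = 0.0687), or 1.55-fold.

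All 11 PDK4 probes were higher under HF, by 0.46 to 0.69, and they tracked one another across pigs with correlations of 0.83 to 0.999. The 5 that did not pass had raw p-values of 0.0114 to 0.0322. Of these, A_72_P170396 and A_72_P443195 passed in 0 alternative fits. Closer to the threshold the test split near-identical values, as the twin probes show. O11548 rose by 0.63, and A_72_P576424 with the same 60 bases was higher by 0.61 at a raw p of 0.0116 and did not pass. The mean of the 11 probes rose by 0.62 (SE 0.22, limma adjusted p = 0.0645). The largest single change was at A_72_P661167, which rose by 0.69 or 1.61-fold (limma adjusted p = 0.0493).

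PDK1, the kinase known as a target of hypoxia signalling, fell under HF at A_72_P236277. The lowest, median and highest values of low RFI pigs were 1.98, 2.44 and 2.93 under HF and 2.06, 2.63 and 2.99 under LF. Those of high RFI pigs were 1.49, 2.1 and 2.33 under HF and 1.89, 2.43 and 2.69 under LF. In 22 of the 24 HF pigs the value was below the LF median. This probe fell by 0.27 (SE 0.07, limma adjusted p = 0.0075), and the repeat of its sequence outside the set fell by 0.28 (adjusted p = 0.0061). A_72_P471686 was lower by 0.19 but missed the raw p cut-off (limma p = 0.0111), and O12681 was higher by 0.09 (limma adjusted p = 0.50). The mean over the 3 PDK1 probes, which disagree in sign, did not pass (-0.13, adjusted p = 0.159 in limma).

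PDK2, a kinase found in most tissues, differed by -0.16 (SE 0.07, limma adjusted p = 0.156) at its brightest probe, A_72_P223117, which the array names by a gene number and not by the symbol, by -0.05 at the probe printed above and by 0.10 at O11322. PDK3 differed by -0.18 to -0.08 at its 3 probes, with no adjusted p under 0.315 in limma. Its probes did not measure the same thing. A_72_P465465 and A_72_P290514, which share 16 bases, correlated at 0.99 across pigs, but A_72_P145371 correlated with them at -0.52 and -0.53. O11322 likewise correlated with the other PDK2 probes at -0.15 and -0.18, so that the probes named for PDK2 or for PDK3 gave no single level of either gene. PDP1, the catalytic phosphatase subunit, had a mean of -2.04 ± 0.28 (SD, n = 24) under HF and -2.16 ± 0.33 under LF, a difference of 0.13 (SE 0.09, limma adjusted p = 0.376).

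Some probes that the array describes as a kinase of this family carry no gene name that the rule accepts. A_72_P227202, described as PDK4, was higher under HF by 0.57 (limma adjusted p = 0.0937), close to the named PDK4 probes. A_72_P316393, described by likeness to a dog PDK2, rose by 0.45 (limma adjusted p = 0.0087), unlike any of the 3 PDK2 probes of the set. A_72_P310868, described as similar to PDK1, fell by 0.22 (limma adjusted p = 0.0479), and A_72_P357458, described as PDK1, differed by -0.27 (limma adjusted p = 0.0937).

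The fits above use all arrays, which were scanned on 2 dates with 24 arrays each and 6 of each group per date. On the first date alone, 11 of the 42 probes passed by diet, against 5.43% of all kept probes, and these were all probes of PDHA1, PDHB and DLAT and 1 of PDK1. On the second date alone none passed, against 2.77% of all kept probes, and there 12 of the 42, 9 of them PDK4 probes, had a raw p under 0.05, against 16.2% of all kept probes. The sign was the same on both dates for 41 of the 42 probes and for all 17 that passed, but a call on the pooled arrays nearly fixes this, since 5784 of the 5790 called probes of the whole array did the same. DLAT A_72_P177491 differed by -0.51 on the first date and by -0.24 on the second, PDHA1 A_72_P020186 by -0.26 and -0.16, and PDK4 O11548 by 0.53 and 0.72. A test of the difference between the dates called none of the 42 probes (limma, 1 probe at a raw p under 0.05, PDK1 O12681) and 0.00225% of all kept probes.

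**Figure D3:**
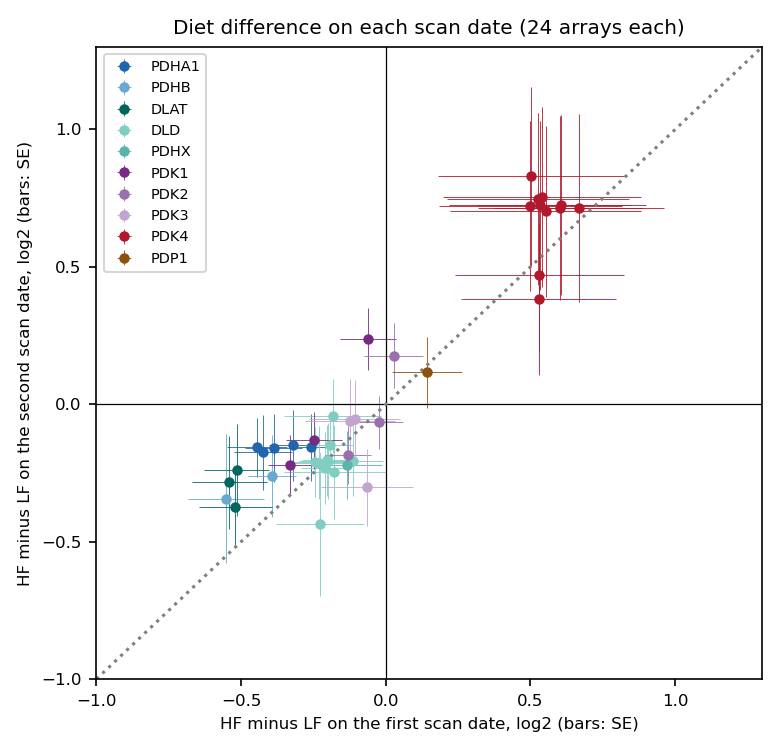
Difference between the HF and the LF diet (log2) on the first scan date (horizontal axis) and on the second (vertical axis), 24 arrays each, for the 42 probes coloured by gene. Bars are standard errors and the dotted line marks equal values. The PDK4 probes lie in the upper right and PDHA1, PDHB, DLAT and DLD in the lower left, with 41 of 42 probes on the same side of 0 on both dates.

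The levels themselves moved with the date. The mean of DLAT A_72_P177491 was 4.09 ± 0.42 (SD, n = 24) on the first date and 3.66 ± 0.43 on the second, and that of PDHB A_72_P407943 was 6.58 ± 0.45 and 6.22 ± 0.61. PDHX was at 0.49 and 0.46. With the date as a block, 18 probes passed. The position of the array on its slide was not balanced between the groups, and with the position as a block only 1 probe each of PDHA1, PDHB, DLAT and PDK1 fell and 9 of PDK4 rose. Under that fit the brightest DLAT probe differed by -0.33 (SE 0.14, limma adjusted p = 0.147). The part of the position in the falls was not tested otherwise. The number of PDK4 probes that passed ranged from 0 to 9 of 11 over the alternative fits, although the difference stayed positive, at 0.33 to 0.84 over all probes and fits. No PDK4 probe passed with limma's array weights or on either date alone, 2 passed with the replicate block, 3 with the study's analysis of variance, with no filter on dim probes or with the signal covariate, and 3 without HF high RFI replicate 2, the array with the fewest probes above background (62.2%).

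By line, 2 of the 42 probes passed, against 1.37% of all kept probes, and both were PDK1 probes that were higher in low RFI pigs (0.809% of all kept probes were). At A_72_P236277 the mean was 2.51 ± 0.26 (SD, n = 24) in low RFI pigs and 2.22 ± 0.30 in high RFI pigs, a rise by 0.29 (SE 0.07, limma adjusted p = 0.0297), or 1.22-fold. O12681 rose by 0.28 (SE 0.08, limma adjusted p = 0.0579), although it showed no fall by diet. Across pigs O12681 correlated at only 0.29 with A_72_P236277 and 0.25 with A_72_P471686, whereas the latter probes correlated at 0.76. It is thus weak as a second reading of PDK1. A_72_P471686 was higher by 0.22 and did not pass (limma adjusted p = 0.13). The repeat of A_72_P236277 outside the set was higher by 0.31 (limma adjusted p = 0.0179). The mean of the 3 PDK1 probes, O12681 included, rose by 0.26 (adjusted p = 0.0124 in limma). The probes described as PDK1 or similar to it did not show this, with -0.28 at A_72_P357458 (limma adjusted p = 0.263) and 0.05 at A_72_P310868 (limma adjusted p = 0.919). The line difference at A_72_P236277 was 0.28 on the first date and 0.30 on the second. Neither probe passed on 1 date alone or with the array position as a block, where A_72_P236277 had an adjusted p of 0.0993 in limma.

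The other genes did not pass by line. Of the 42 probes, 10 had a raw p under 0.05, against 10.4% of all kept probes. PDK4 probes were higher in low RFI pigs by 0.32 to 0.77, with an adjusted p of 0.598 at O11548 and of 0.116 at A_72_P584171, the lowest of the 11, in limma. A_72_P584171 passed with array weights only. The difference was 0.87 on the first date and -0.07 on the second at O11548, and 1.24 and 0.31 at A_72_P584171. The subunits PDHA1 and PDHB differed by -0.02 to 0.06 between the lines, and DLAT by -0.19 to -0.15. DLD differed by -0.42 to 0.04, with a raw p of 0.0123 at A_72_P648642 in limma, and PDK3 by -0.10 to 0.33, with an adjusted p of 0.189 at A_72_P145371 in limma, a probe that passed with array weights and with the replicate block.

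The interaction of diet and line asks whether the diets acted differently in the lines. None of the 42 probes passed, by limma or by the unmoderated analysis of variance, and none had a raw p under 0.05. No kept probe passed either (0%), and 1.04% of them had a raw p under 0.05. Within high RFI pigs 1 probe passed, PDK1 A_72_P236277 with a fall by 0.35 (limma adjusted p = 0.071), against 1.66% of all kept probes (0.996% lower, 0.665% higher), and 27 of the 42 had a raw p under 0.05, against 13.9% of all kept probes. Within low RFI pigs none passed by limma or by the analysis of variance, against 3.04% of all kept probes (1.58% lower, 1.46% higher), and 7 of the 42 had a raw p under 0.05, against 15.1% of all kept probes. Side by side, PDHB A_72_P407943 differed by -0.33 between the diets in the low RFI line and by -0.56 in the high RFI line, DLAT A_72_P177491 by -0.32 and -0.43, and PDK4 O11548 by 0.46 and 0.80. Since the interaction was not called, these do not show that the lines differed.

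The genes around the complex were taken from 5 lists, each gene at its brightest probe, and 12.7% of the 11358 genes with a symbol passed by diet (9.33% lower, 3.35% higher), with a median difference of -0.04. Of the proteins that serve the complex directly, 3 of 7 were measured and none passed. MPC2, a subunit of the carrier that brings pyruvate into the mitochondrion, differed by -0.28 (limma adjusted p = 0.179), PDPR, the regulatory subunit of the phosphatase, by 0.32 (adjusted p = 0.274), and LIPT1, which attaches lipoic acid, by 0.03. Of the other complexes that use DLD, 6 of 8 genes were measured and none passed, with a median of -0.07.

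Among the other enzymes and carriers of pyruvate, 12 of 14 genes were measured, 1 fell and 1 rose, and the median was -0.03. The gene that fell was ME1, the cytosolic malic enzyme that makes pyruvate and NADPH, by 0.71 (SE 0.19, limma adjusted p = 0.0120). PCK2, the mitochondrial phosphoenolpyruvate carboxykinase, rose by 0.38 (SE 0.08, limma adjusted p = 0.0016). All 3 ME1 probes and both PCK2 probes passed. PC, the pyruvate carboxylase, did not pass at its brightest probe (-0.08), but 1 of its 3 probes passed and the lowest difference was -0.25.

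Of the genes that carry acetyl-CoA onward into fatty acids, all 9 were measured, 3 fell and none rose, and the median was -0.31. ACACA, the acetyl-CoA carboxylase of fatty acid synthesis, fell by 0.62 (SE 0.20, limma adjusted p = 0.0392), and its 4 probes all passed. ACLY, which splits citrate back to acetyl-CoA, and ACSS2, which makes acetyl-CoA from acetate, were the others that fell. FASN, the fatty acid synthase, did not pass at its brightest probe (-0.15, limma adjusted p = 0.175), but 2 of its 5 probes passed and the lowest difference was -0.58.

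Of 10 transcription factors and cofactors known to act on PDK genes, all were measured, and at the brightest probe 3 fell and 1 rose, with a median of -0.05. PPARD, a receptor for fatty acids, fell by 0.60 (SE 0.13, limma adjusted p = 0.0022) at that probe and by 0.24 at another, and differed by -0.01 at the third. PPARA, a related receptor, has no single direction on the array. Its brightest probe rose by 0.96 (SE 0.22, limma adjusted p = 0.0033), and another fell by 0.32 (limma adjusted p = 0.0626). The third differed by 0.21 and did not pass. By qPCR on the same pigs, the study reports PPARA as lower under HF in this tissue, which is the direction of the probe that fell. RXRA, the partner of these receptors, and HIF1A, the hypoxia factor, were the other genes that fell. Both RXRA probes passed, but only 1 of 4 for HIF1A. PPARGC1A and FOXO1, which did not pass at their brightest probes, each had 1 other probe that passed, with highest differences of 0.66 and 0.26.

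**Figure D4:**
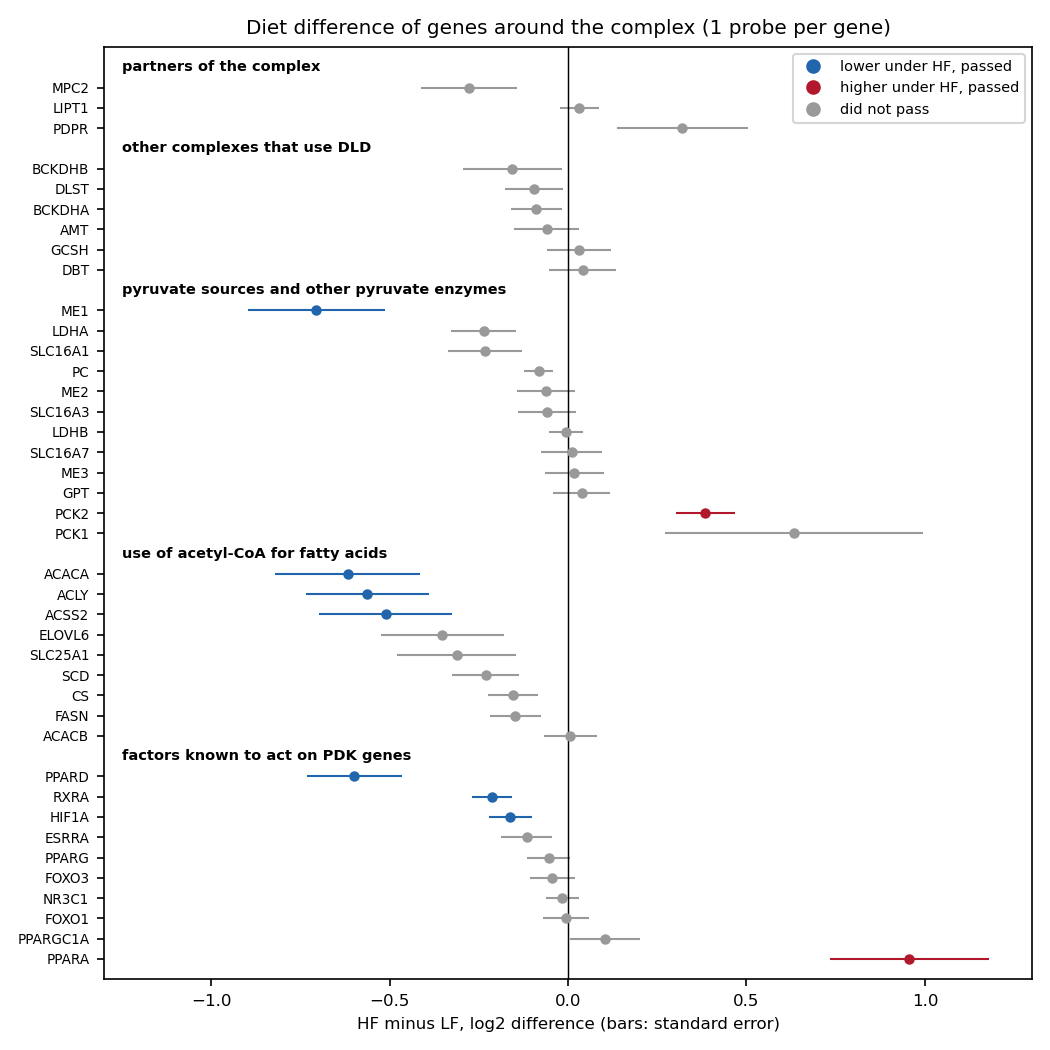
Difference between the HF and the LF diet (log2, 24 pigs each) for the genes of the 5 lists at 1 probe per gene, with standard errors as bars. Genes that passed are in blue (lower under HF) or red (higher). ACACA, ACLY, ACSS2, ME1, PPARD, RXRA and HIF1A are lower and PCK2 is higher, and PPARA is drawn at its brightest probe, which is higher while another of its 3 probes is lower.

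Markers of cell types were read beside these results. At its brightest probe, no marker passed by diet among 7 adipocyte, 8 skeletal muscle, 7 macrophage, 5 blood and 5 endothelial genes. All 8 skeletal muscle genes were lower under HF, with a median of -0.21, and muscle is rich in this complex. The range was from -0.51 at MYLPF to -0.08 at ACTA1, whose probes ran from -0.86 to 0.08. The summed level of the muscle markers is the log2 of the sum of their signals, each relative to the array median. In low RFI pigs it ran from 4.74 to 6.0 under HF and from 4.77 to 5.90 under LF. In high RFI pigs it ran from 4.69 to 5.47 under HF and from 4.83 to 6.25 under LF, so that the groups overlapped. ACTA1 was the brightest marker (mean 4.66, next CKM at 2.15), so the sum mainly follows ACTA1 and says little about the others. The summed adipocyte level lay between 11.1 and 11.6 in all groups, and 4 of its 7 markers were lower under HF, with a median of -0.05 and a range from -0.18 at CIDEC to 0.11 at ADIPOQ. ADIPOQ passed at 2 of 9 probes, and MYH7 and CKM, of muscle, at 1 probe each. The part of muscle RNA in the falls was not tested.

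Whether the genes varied together between pigs of one group was asked by correlating the brightest probes over the 48 arrays after subtracting the group means, for all 45 pairs (permutation test with 100000 resamples, two-sided, Benjamini-Hochberg over the pairs). The E1, E2 and E3 subunits formed a block. PDHA1 and PDHB correlated at r = 0.88 (rho = 0.83), PDHB and DLAT at r = 0.84 (rho = 0.80), DLAT and DLD at r = 0.84 (rho = 0.82), and PDHA1 and DLD, the weakest pair of these genes, at r = 0.73 (rho = 0.70). For each of these 4 pairs the permutation p of r and of rho was 1e-05, the smallest possible, and the adjusted p of r was 5.62e-05. Without the 2 pigs farthest from the median of the first gene, the coefficients were 0.83, 0.82, 0.81 and 0.69. They held on both dates, at 0.62 and 0.95 for PDHA1 with PDHB, 0.83 and 0.82 for PDHB with DLAT, 0.65 and 0.87 for DLAT with DLD, and 0.42 and 0.78 for PDHA1 with DLD. DLD thus moved with the subunits that fell by diet, although it did not pass by diet itself.

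**Figure D5:**
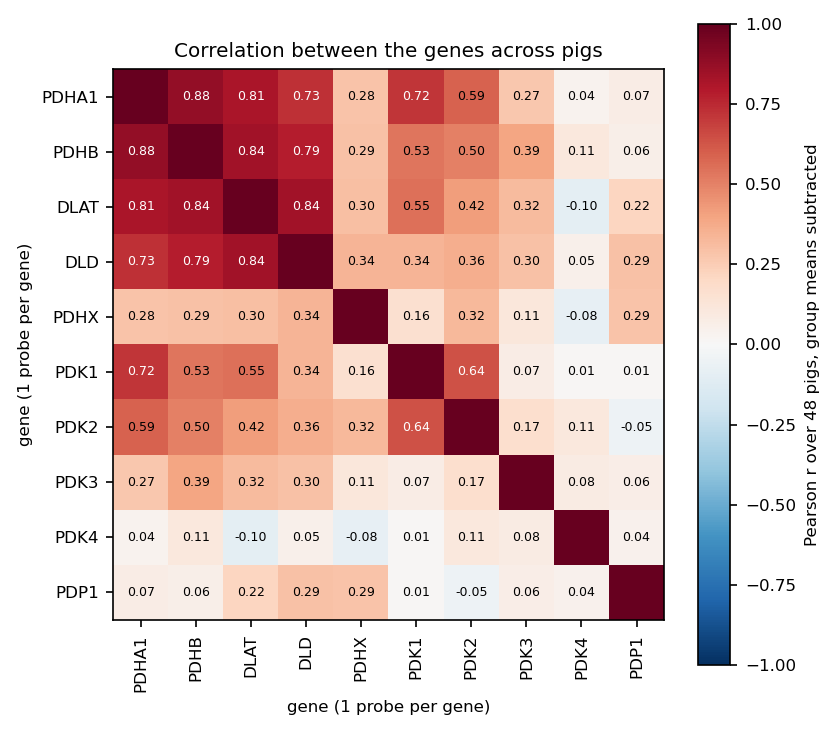
Pearson correlation between the 10 genes over 48 pigs after subtracting group means, 1 probe per gene. Cells give r and the colour scale runs from -1 (blue) to 1 (red). PDHA1, PDHB, DLAT and DLD form a block at 0.73 to 0.88, The other genes have lower values with DLD, and PDK4 lies between -0.10 and 0.11 with every gene.

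PDHX had lower values, with r = 0.28 to 0.34 with the other subunits and no adjusted permutation p of r under 0.0820. PDK1 correlated with PDHA1 at r = 0.72 (rho = 0.55, adjusted permutation p of r 5.62e-05) and with PDK2 at r = 0.64 (rho = 0.46, adjusted permutation p of r 5.62e-05). Within dates the pair of PDK1 and PDHA1 stood at 0.54 and 0.73, and that of PDK1 and PDK2 at 0.34 and 0.68. Without the 2 farthest pigs they were 0.62 and 0.56. PDK1 also correlated with DLAT at r = 0.55 (rho = 0.46, adjusted permutation p of r 0.00081 and of rho 0.0103). With PDHB it stood at r = 0.53 (rho = 0.35, adjusted permutation p of r 0.00082 and of rho 0.0663). Within dates these pairs stood at 0.29 and 0.52 for DLAT and at 0.17 and 0.58 for PDHB. PDK2 correlated with PDHA1 at r = 0.59 (rho = 0.37), with PDHB at r = 0.50 (rho = 0.36) and with DLAT at r = 0.42 (rho = 0.30), with adjusted permutation p of r of 0.00045, 0.0022 and 0.0156 and of rho of 0.0459, 0.0585 and 0.124. Without the 2 farthest pigs they were 0.47, 0.37 and 0.38, and on the first date alone only 0.19, 0.11 and 0.08, against 0.66, 0.54 and 0.32 on the second. PDK2 and DLD stood at r = 0.36 (rho = 0.25, adjusted permutation p of r 0.0446 and of rho 0.198), with -0.09 and 0.35 within dates. PDK3 correlated with PDHB at r = 0.39 (rho = 0.33, adjusted permutation p of r 0.0350 and of rho 0.0816), at 0.36 without the 2 farthest pigs and at 0.54 and 0.25 within dates. PDK4 had no such pair, with r between -0.10 and 0.11 with all 9 other genes and no adjusted permutation p of r under 0.70. The median over the 45 pairs was 0.29, and between genes drawn from the whole array it was 0.01 (2000 genes). Many other genes varied with the subunits as well, since the 95th percentile of r with all 11348 other genes was 0.62 for PDHA1, 0.65 for PDHB, 0.64 for DLAT and 0.65 for DLD. PDHB was closer to NDUFB5 and NDUFA1 (both 0.93), subunits of the respiratory chain, than to any gene of the set, so that these correlations are not particular to the complex.

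As a description without a test, the genes of the whole array most like PDHA1 across the 48 pigs were SDHA (r = 0.91), PCCB (0.90) and ATP5A1 (0.90), which encode mitochondrial enzymes. Those most like DLAT were SS18L2 (0.89), SDHB (0.88) and MRPS14 (0.88), and those most like PDK4 were BIVM (0.69), COG5 (0.68) and HBP1 (0.68). All these values share the arrays and their centring.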

How the data were processed

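Tissue RNA of 48 pigs was labelled with Cy3 and hybridized to 1-colour 60-base arrays. Per the file headers and the study's methods, the authors read the images with Agilent Feature Extraction 10.7.3.1, and the deposited scanner files hold the spot intensity on a linear scale. A table deposited by the authors (made with R 2.10.0, per the submitters' processing notes) gives 38987 probes as the log2 median intensity minus an array constant, with no background subtraction. It was used as an alternative. Here the log2 of the background-subtracted processed signal was centred on the array median over 44356 kept probes. The 1319 control spots and marked outlier spots were left out. A model with 1 mean per group over the 48 arrays gave the diet, line and interaction contrasts in limma 3.58.1 (trend, R 4.3.3), and was tested on simulated data first. Genes were named through the array and the reference tables, with no genome position, and 32961 spots had no name. Each of 6 slides held 2 arrays of each group. The number of arrays limits the precision. Each array is a separate pig per the study's methods.

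All kept probes of the 10 genes are reported. Of each list the called gene with the largest change in each direction is named, plus those acting directly on the complex, and 3 genes of most like pattern for PDHA1, DLAT and PDK4. Other genes that passed are named without this rule, after their values were seen. The members and lists were chosen with earlier results of these data known. Alternatives changed the scaling, background, filter, batch terms, weights and test.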

Additional observations from a re-analysis of the deposited data

How the results depend on the processing

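The count of 17 probes by diet was 13 to 20 under every alternative except the first scan date alone (11) and the second alone (0). The probes behind the count changed more than the count. With array weights 17 passed, but 6 calls were lost and 6 gained, with 0 PDK4 and 5 DLD probes among them. With the position block 7 calls were lost and 3 gained. By line, the 2 probes became 1 with 75th percentile scaling, quantile normalization, normexp background or no filter on dim probes, 0 with the array position as a block or on either date alone, and 4 with array weights. Within low RFI pigs the 0 became 1 with a slide block or the replicate block, and 3 with array weights or the signal level as a covariate. Within high RFI pigs the 1 became 0 with 75th percentile scaling, quantile normalization, no filter, the position block, the second date or without HF high RFI replicate 2 (chosen after seeing the data), 2 with the deposited table, probes above background on all arrays or the first date, 4 with slide, date or replicate block, 6 with the covariate and 10 with array weights. The 9 neighbour genes by diet became 5 with the position block, 1 on the second date and 15 with array weights. The causes were not tested, but single dates hold fewer arrays. Replicate numbers lie on 1 slide each, and deviations of same-numbered pigs correlated at a median of 0.16, over 0.1 in 48 of 72 pairs, so the numbers were not taken as pairs. With the replicate block 14 probes passed by diet, 3 by line, 0 for the interaction, 1 within the low RFI line, 4 within the high RFI line and 9 neighbour genes. With 75th percentile scaling the lower share of all calls by diet went from 57% to 32.8%, and the members split 9 lower and 9 higher in place of 11 and 6. No direction of a called probe reversed in any alternative.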
